A study of Mus musculus with 10 samples.

Results

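The genes that make and use microRNAs were examined as a set of 10 out of the 55401 gene identifiers counted in each library: the silencing effectors Tnrc6a, Tnrc6b and Tnrc6c, the Argonautes Ago1, Ago2, Ago3 and Ago4, and the processing genes Dicer1, Drosha and Dgcr8. They were chosen by name, and all 10 were found in the annotation and passed the filter on low counts in both comparisons. The libraries are from Neuro2a, a mouse neuroblastoma line labelled wild-type. Each well was transfected with 0.5 µg of each plasmid by Lipofectamine and incubated for 72 h. Cells given dCas9-SCN9A (3 libraries), a Cas9 that binds but does not cut DNA directed at SCN9A, were compared with cells given dCas9-empty (3 libraries). Cells given ZF-SCN9A (2 libraries), an engineered zinc-finger protein directed at the same gene, were compared with cells given the red fluorescent protein mCherry (2 libraries), taken here as its control. The pairs share no library. The labels say neither what dCas9-empty lacks nor which share of cells took up plasmid, and RNA came from whole wells.

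MicroRNAs are cut from long host transcripts. In the nucleus the RNase III enzyme Drosha, held by its RNA-binding partner Dgcr8, releases a hairpin, and in the cytoplasm Dicer1, also an RNase III enzyme, trims it to a duplex. One strand is loaded into an Argonaute protein and pairs with messenger RNAs mainly through its seed, the short stretch near its 5′ end. Argonaute recruits a Tnrc6 (GW182) protein, which brings in deadenylases and blockers of translation, so that the targeted messenger RNA is silenced. Ago2 is the Argonaute that can also cleave a fully paired target.

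Some of these genes themselves carry microRNA hairpins in their exons, annotated as genes of their own. The files list reads that could belong to more than 1 gene apart, as ambiguous (4.18% to 4.44% of reads), so reads over the shared bases may be missing from the gene's count. Mir5113 covers 0.346% of the exon bases of Tnrc6b, and Gm47288, annotated as a microRNA gene, covers 1.21% of those of Drosha. Mir1306 and the hairpin Gm24572 (miR-3618) cover 1.03% and 1.14% of the exon bases of Dgcr8. Hairpins of the Dgcr8 messenger RNA are known to be cut by the Drosha and Dgcr8 complex, a loop by which the complex lowers its own messenger RNA. The mature sequences below are from RefSeq (GRCm38.p6), 5′ to 3′, with the seed (bases 2 to 8) in capitals. No mature RefSeq microRNA was found within Drosha, so none is shown for Gm47288. The sequences are shown because they are the mature microRNAs that RefSeq places within the 10 genes. In the order given they lie at chr15:80940049-80940071 (plus strand) and, on the minus strand, at chr16:18284248-18284268, chr16:18284288-18284310, chr16:18284562-18284583 and chr16:18284602-18284623.
mmu-miR-5113 (Tnrc6b): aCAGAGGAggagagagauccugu
mmu-miR-1306-3p (Dgcr8): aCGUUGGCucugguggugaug
mmu-miR-1306-5p (Dgcr8): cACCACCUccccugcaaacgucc
mmu-miR-3618-3p (Dgcr8): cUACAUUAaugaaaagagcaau
mmu-miR-3618-5p (Dgcr8): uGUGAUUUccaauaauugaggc
No seed is shared among these 5.

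Gene counts came to 15.4 to 16.4 M per dCas9-SCN9A library and 17.8 to 19 M per dCas9-empty library, and the zinc-finger arm was shallower, with 4.41 and 6.3 M for ZF-SCN9A against 6.59 and 7.48 M for mCherry. The targeted gene, Scn9a, stood at 31.0, 30.8 and 28.2 CPM (counts scaled to a common library total) with dCas9-SCN9A, against 75.3, 81.1 and 78.3 CPM with dCas9-empty. It stood at 18.8 and 15.7 CPM with ZF-SCN9A, against 62.4 and 56.3 CPM with mCherry. Of 12 neuroblastoma markers 11 reached 1 CPM in every group, while 6 immune markers summed to at most 2.7 CPM in any library. Fibroblast markers (6 genes) summed to 8.12 to 21.9 CPM with dCas9-SCN9A and 9.77 to 19.8 CPM with dCas9-empty, and to 16.1 to 22.01 CPM with ZF-SCN9A and 14.8 to 18.96 CPM with mCherry, so the groups overlapped. Endothelial markers (4 genes) overlapped with dCas9, at 22.4 to 24.9 CPM with dCas9-SCN9A and 20.7 to 24.9 CPM with dCas9-empty, but not with the zinc finger, at 22.9 to 23.3 CPM with ZF-SCN9A and 18.04 to 20.6 CPM with mCherry. Glial markers (6 genes) did likewise, at 6.03 to 7.31 CPM with dCas9-SCN9A and 4.22 to 6.37 CPM with dCas9-empty, and at 5.22 to 6.65 CPM with ZF-SCN9A and 4.74 to 5.12 CPM with mCherry. The endothelial marker Kdr had no read in either zinc-finger group. The share of reads that did not map was higher in every repressor library than in its controls, at 7.38% to 8.06% with dCas9-SCN9A and 6.99% to 7.18% with dCas9-empty, and at 8.96% and 9.33% with ZF-SCN9A and 6.997% and 7.36% with mCherry. Multimapping reads were too, at 8.82% to 8.98% with dCas9-SCN9A and 7.99% to 8.35% with dCas9-empty, and at 6.83% and 7.07% with ZF-SCN9A and 6.62% and 6.69% with mCherry. The part of these marker sums and read shares in the values of the 10 genes was not tested.

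Per kilobase of exon, Ago2 and Drosha had the highest levels of the 10 genes in every group, and Ago4 the lowest. Ago2 averaged 20.5 ± 2.00 CPM per kb in dCas9-SCN9A and 25.0 ± 1.43 in dCas9-empty (SD, n = 3 each), and Drosha 21.5 ± 1.32 and 22.5 ± 1.58. Their ranges overlapped in dCas9-SCN9A, dCas9-empty and ZF-SCN9A, so the order of these neighbours was not resolved there. In mCherry they lay apart, Ago2 at 29.9 and 30.2 and Drosha at 25.2 and 25.5 CPM per kb. Tnrc6a came next in each group, from 12.7 to 17.4 CPM per kb over the 10 libraries, with its range apart from both neighbours. Dicer1, Tnrc6c and Ago1 followed between 6.44 and 10.9 CPM per kb, and within dCas9-SCN9A and dCas9-empty each overlapped the next. Tnrc6b and Dgcr8 came next, at 2.50 to 5.52 CPM per kb, and overlapped except in dCas9-empty, where Tnrc6b was higher. Ago3 (1.17 to 1.77 CPM per kb) and Ago4 (0.615 to 0.968) lay apart from their neighbours in every group.

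**Figure D1:**
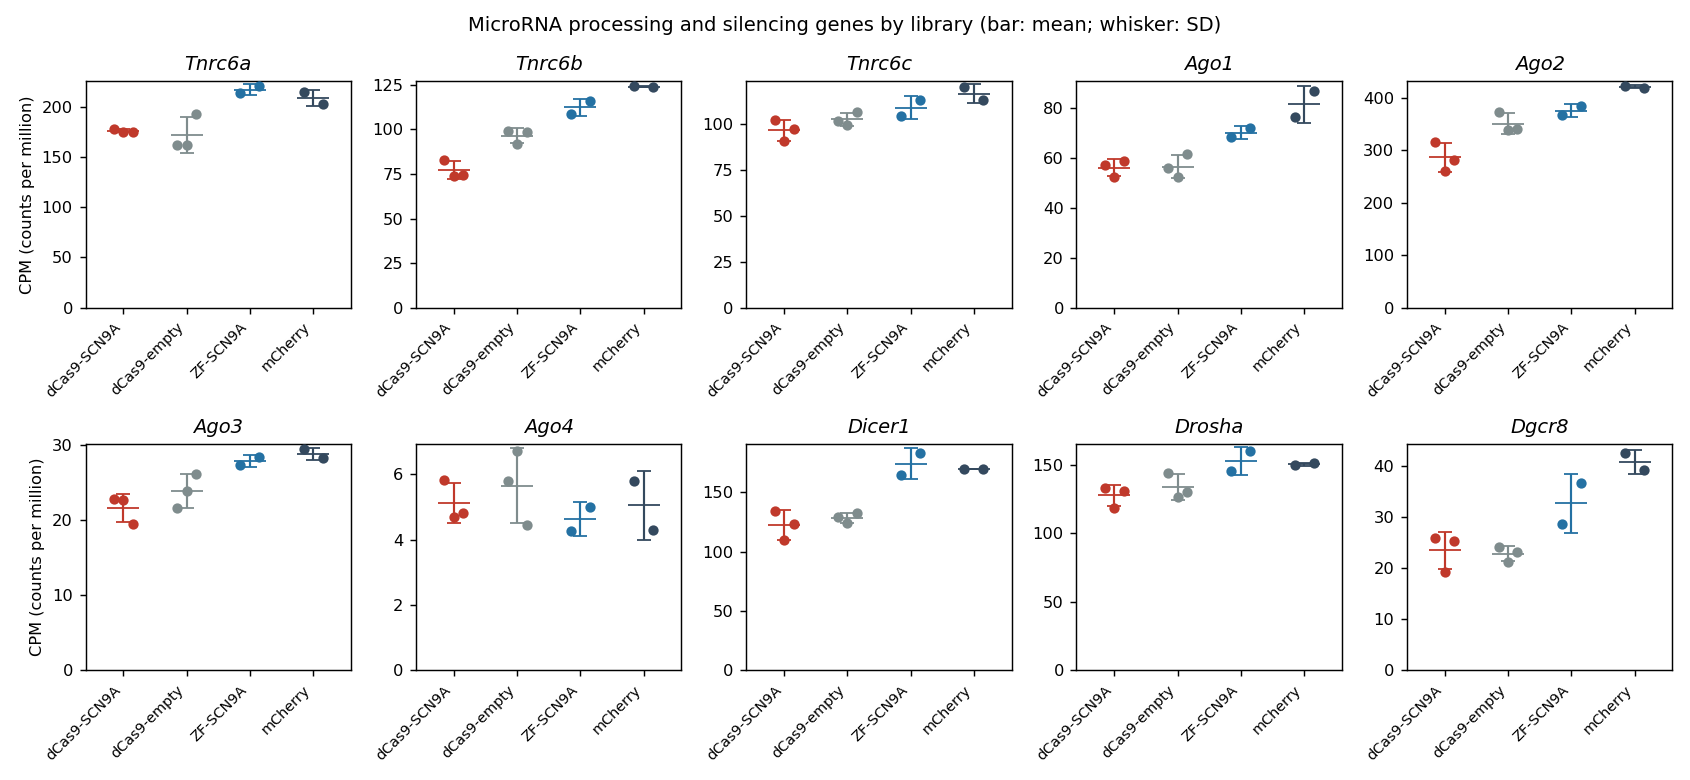
CPM of each of the 10 genes (vertical axis, from 0) in dCas9-SCN9A, dCas9-empty, ZF-SCN9A and mCherry. Points are libraries, bars means and whiskers the SD. Tnrc6b and Ago2 lie lower in all 3 dCas9-SCN9A libraries than in all 3 dCas9-empty libraries, as 9.14% of tested genes do. Dgcr8, Ago1, Ago2 and Tnrc6b lie lower in both ZF-SCN9A libraries than in both mCherry libraries, as 22.3% of tested genes do.

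The first comparison asked what happened to these genes when dCas9 was directed at SCN9A. Tnrc6b and Ago2 had the lowest values relative to control, at 80.0% and 81.7% of the dCas9-empty level, and the other 8 genes lay between 90.3% and 103%. None of the 10 passed edgeR's quasi-likelihood test at an adjusted p under 0.05, where 0.041% of the 14628 genes tested passed. At an unadjusted p under 0.05 there were 2, Tnrc6b and Ago2, both lower, against 10.1% of all genes tested, 4.17% higher and 5.92% lower. DESeq2 called those 2 genes lower, as it did 0.116% of the genes to which it gave an adjusted p, and limma-voom called 0. Their call therefore depends on the test, and it appeared, among other settings, when no filter on low counts was set and when all 10 libraries were fitted together. Leaving out dCas9-SCN9A replicate 1, which was the highest of its group for both genes, called both (adjusted p = 0.0312 for Tnrc6b and 0.0402 for Ago2). Without any other single library neither was called. Replicate 1 of dCas9-empty was also the highest of its group, at 98.95 CPM for Tnrc6b (replicate 3 at 98.64) and 374 CPM for Ago2. The labels do not say whether replicate numbers pair the groups.

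In the second comparison, of the zinc finger with mCherry, Dgcr8 had the lowest value relative to control, at 79.0%, followed by Ago1 at 85.6%, Ago2 at 89.2% and Tnrc6b at 90.4%. None of the 10 passed (0 by edgeR and limma-voom, and 0 by DESeq2, which gave no adjusted p for Ago4), where 4.72% of the 12899 genes tested passed, 2.78% in the lower direction. At an unadjusted p under 0.05 there were 3, Dgcr8, Ago2 and Ago1, all lower, against 16.2% of all genes tested, 7.78% higher and 8.4% lower. In this fit the variance of each of the 10 genes was taken wholly from the trend over all genes, so its p-value does not rest on its own replicates.

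Of the Tnrc6 effectors, Tnrc6b (ENSMUSG00000047888, chr15:80711313-80941085, plus strand, GRCm38) had the lowest value relative to control with dCas9. It was at 83.0, 74.0 and 74.3 CPM in dCas9-SCN9A, against 99.0, 91.6 and 98.6 CPM in dCas9-empty. The 3 dCas9-SCN9A libraries lay wholly below the controls, as those of 9.14% of tested genes did. The log2 fold change was -0.32 ± 0.06 (SE, 95% interval -0.45 to -0.19, adjusted p = 0.0906), from 1172 to 1759 counts a library. In bulk RNA of this kind, fewer cells with a transcript and less of it per cell cannot be told apart. With the zinc finger Tnrc6b was at 109 and 116 CPM in ZF-SCN9A, against 124 and 124 CPM in mCherry, a log2 fold change of -0.15 ± 0.08 (-0.31 to 0.01, adjusted p = 0.377). Both ZF-SCN9A libraries lay below both mCherry libraries, as they did for 22.3% of genes.

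Tnrc6a, the effector with the highest level of the 3, was at 178, 175 and 175 CPM in dCas9-SCN9A, against 162, 162 and 192 CPM in dCas9-empty (log2 fold change 0.03, -0.10 to 0.17). The highest dCas9-empty library lay above all dCas9-SCN9A libraries and the other two below them. In ZF-SCN9A it was at 213 and 221 CPM, against 214 and 203 CPM in mCherry (0.06, -0.08 to 0.19). Tnrc6c was at 102, 90.5 and 97.0 CPM in dCas9-SCN9A, against 101, 99.0 and 106 CPM in dCas9-empty (-0.09, -0.21 to 0.04). It was at 104 and 113 CPM in ZF-SCN9A, against 120 and 113 CPM in mCherry (-0.10, -0.27 to 0.06). The libraries of Tnrc6a and Tnrc6c overlapped between the groups in both comparisons, and all 4 intervals include 0.

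Among the Argonautes, Ago2 (ENSMUSG00000036698, chr15:73095844-73184935, minus strand), the slicing member and the one with the highest level, was at 317, 262 and 282 CPM in dCas9-SCN9A, against 374, 339 and 340 CPM in dCas9-empty. Every dCas9-SCN9A library lay below every control library, as for 9.14% of tested genes. The log2 fold change was -0.29 ± 0.07 (SE, -0.43 to -0.15, adjusted p = 0.156). With ZF-SCN9A it was at 367 and 385 CPM, against 423 and 420 CPM with mCherry (-0.16 ± 0.06, -0.29 to -0.04, adjusted p = 0.12). These groups did not overlap either, as for 22.3% of tested genes in the lower direction. Exons of Chrac1, on the opposite strand, cover 1.56% of the exon bases of Ago2, and the counting used did not separate strands.

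Ago1, whose gene lies beside Ago3 and Ago4 on chromosome 4, was at 57.2, 52.3 and 58.9 CPM in dCas9-SCN9A, against 55.8, 52.4 and 61.5 CPM in dCas9-empty (-0.01, -0.16 to 0.14). With ZF-SCN9A it was at 68.2 and 72.0 CPM, against 76.3 and 86.8 CPM with mCherry (-0.22 ± 0.10, -0.41 to -0.04, adjusted p = 0.18). Both ZF-SCN9A libraries lay below both mCherry libraries, as for 22.3% of tested genes, whereas the dCas9 groups overlapped. Ago3 had log2 fold changes of -0.14 (-0.34 to 0.06) with dCas9 and -0.05 (-0.33 to 0.23) with the zinc finger, from means of 21.6 CPM in dCas9-SCN9A and 23.8 CPM in dCas9-empty, and 27.8 CPM in ZF-SCN9A and 28.8 CPM in mCherry. Ago4, at 22 to 38 counts a library in the zinc-finger arm, had -0.15 (-0.52 to 0.22) with dCas9 and -0.13 (-0.79 to 0.53) with the zinc finger, so changes within these intervals were not detectable at this depth. All 4 Argonautes had values below 0 in both comparisons, save that Ago1 with dCas9 was above 0 with plain library sizes and with an exon length correction, and Ago3 with the zinc finger with the length correction, and that leaving out single libraries turned Ago1 (up to 0.059) and Ago4 (up to 0.0055) with dCas9 and Ago4 (up to 0.090) with the zinc finger. By comparison, values were below 0 for 48.3% of all genes tested with dCas9 and 49.6% with the zinc finger. Among tested genes in the exon length range of the 10 genes, these shares were 67.2% with dCas9 and 56.3% with the zinc finger. That range was not matched to the length of each Argonaute.

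Among the processing genes, Dgcr8 (ENSMUSG00000022718, chr16:18253948-18289246, minus strand) had the lowest value with the zinc finger and the highest of the 3 with dCas9. It was at 25.9, 19.3 and 25.4 CPM in dCas9-SCN9A, against 24.1, 21.3 and 23.3 CPM in dCas9-empty (0.04 ± 0.10, -0.18 to 0.26), with the control libraries inside the range of the dCas9-SCN9A libraries. With ZF-SCN9A it was at 28.7 and 36.8 CPM, against 42.5 and 39.2 CPM with mCherry (-0.34 ± 0.13, -0.59 to -0.08, adjusted p = 0.115). The groups did not overlap, as for 22.3% of tested genes in the lower direction. The estimate rests much on ZF-SCN9A replicate 1: without it the log2 fold change was -0.15, and without ZF-SCN9A replicate 2 it was -0.51. Of the exon bases of Dgcr8 17.1% are shared with other genes, chiefly Trmt2a on the opposite strand (10.7%) and Gm49776 on the same strand (4.25%), so its level is less certain than those of the other 9 genes, which share at most 1.56%.

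Drosha, the nuclear enzyme, was at 133, 119 and 131 CPM in dCas9-SCN9A, against 144, 126 and 131 CPM in dCas9-empty (-0.07, -0.20 to 0.06). It was at 146 and 160 CPM in ZF-SCN9A, against 150 and 151 CPM in mCherry (0.02, -0.13 to 0.17). Dicer1, the cytoplasmic enzyme, was at 134, 109 and 123 CPM in dCas9-SCN9A, against 129, 124 and 132 CPM in dCas9-empty (-0.07, -0.21 to 0.07). It was at 165 and 183 CPM in ZF-SCN9A, against 169 and 170 CPM in mCherry (0.03, -0.11 to 0.18). The groups overlapped for both enzymes in both comparisons.

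The changes with dCas9 and with the zinc finger were then set against each other in a fit of all 10 libraries, dCas9 minus zinc finger. None of the 10 genes passed (0 by edgeR, DESeq2 and limma-voom), where 0.907% of 15766 genes did. At an unadjusted p under 0.05 there was 1, Dgcr8, with a difference of 0.38 ± 0.18 (SE, 0.02 to 0.74, adjusted p = 0.42), against 10.9% of all genes, 5.49% in this direction. The difference was -0.17 (-0.37 to 0.03) for Tnrc6b, -0.12 (-0.32 to 0.08) for Ago2 and 0.22 (-0.03 to 0.46) for Ago1. A change that was lower with dCas9 than with the zinc finger was thus not shown for Tnrc6b or Ago2.

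**Figure D2:**
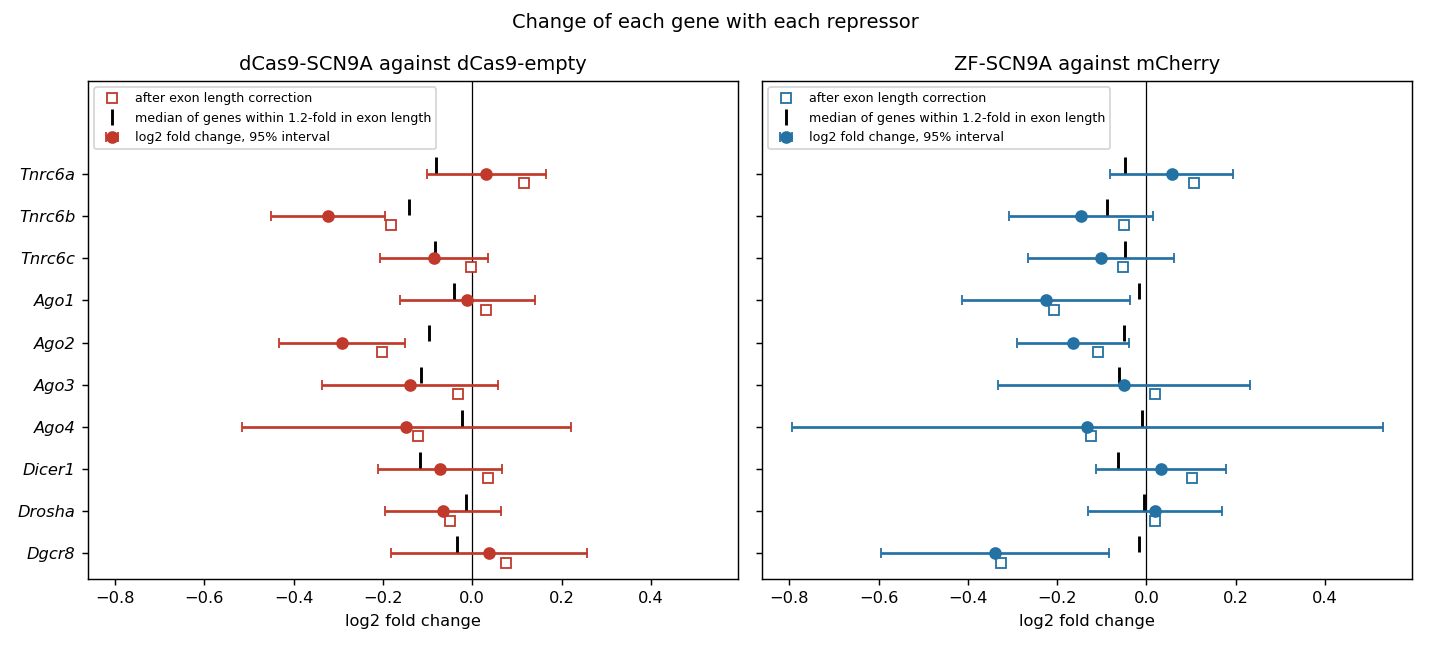
Log2 fold change (horizontal axis) of each gene with dCas9-SCN9A against dCas9-empty (left) and ZF-SCN9A against mCherry (right). Filled circles with whiskers are estimates with 95% intervals, open squares the estimates after a correction for exon length, and black ticks the median of all tested genes within 1.2-fold of the gene's exon length; Tnrc6b moved from -0.32 to -0.18 with the correction in the dCas9 comparison.

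Exon length was examined because long transcripts tended to lie lower in these libraries. The 10 genes have 5935 (Drosha) to 23677 (Tnrc6b) exon bases, and when tested genes were split by length into 5 groups of about equal size, 8 of the 10 fell in the longest group in both comparisons. With dCas9 the median log2 fold change of the longest group was -0.059 and that of the shortest 0.094, and with the zinc finger -0.035 and 0.047. The 10 genes had 8 values below 0 (7 with plain library sizes, where Ago1 turned) and a median of -0.078 with dCas9. Over the 4099 tested genes of their length range 67.2% were below 0, with a median of -0.047. With the zinc finger they had 7 values below 0 and a median of -0.12, against 56.3% and a median of -0.025 over 4005 genes of that range. The range was not matched to the length of each gene. For genes within 1.2-fold of each gene's exon length, medians ran from -0.14 (Tnrc6b) to -0.014 (Drosha) with dCas9. With the zinc finger they ran from -0.089 (Tnrc6b) to -0.0051 (Drosha). The medians of the 10 genes are therefore not shown to be low for their length by this range.

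Tnrc6b was low for its length with dCas9: of the 79 tested genes within 1.2-fold of its exon length, with a median of -0.14, 1.27% lay lower. For Ago2 it was 3.16% of 570 such genes (median -0.097). With the zinc finger 34.2% of 76 genes of like length lay lower than Tnrc6b and 21.5% of 559 lower than Ago2, whereas 4.51% of 1996 lay lower than Dgcr8. With an offset per library smoothed over exon length, Tnrc6b stood at -0.18 ± 0.05 and Ago2 at -0.20 ± 0.06 with dCas9 (SE, adjusted p = 0.483 for both), and Dgcr8 at -0.33 and Ago1 at -0.21 with the zinc finger. The median of the 10 was then -0.018 with dCas9, with 6 below 0, and -0.051 with the zinc finger, also with 6 below 0. The part of transcript length, or of anything that varies with it, in these values was not tested beyond this correction.

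**Figure D3:**
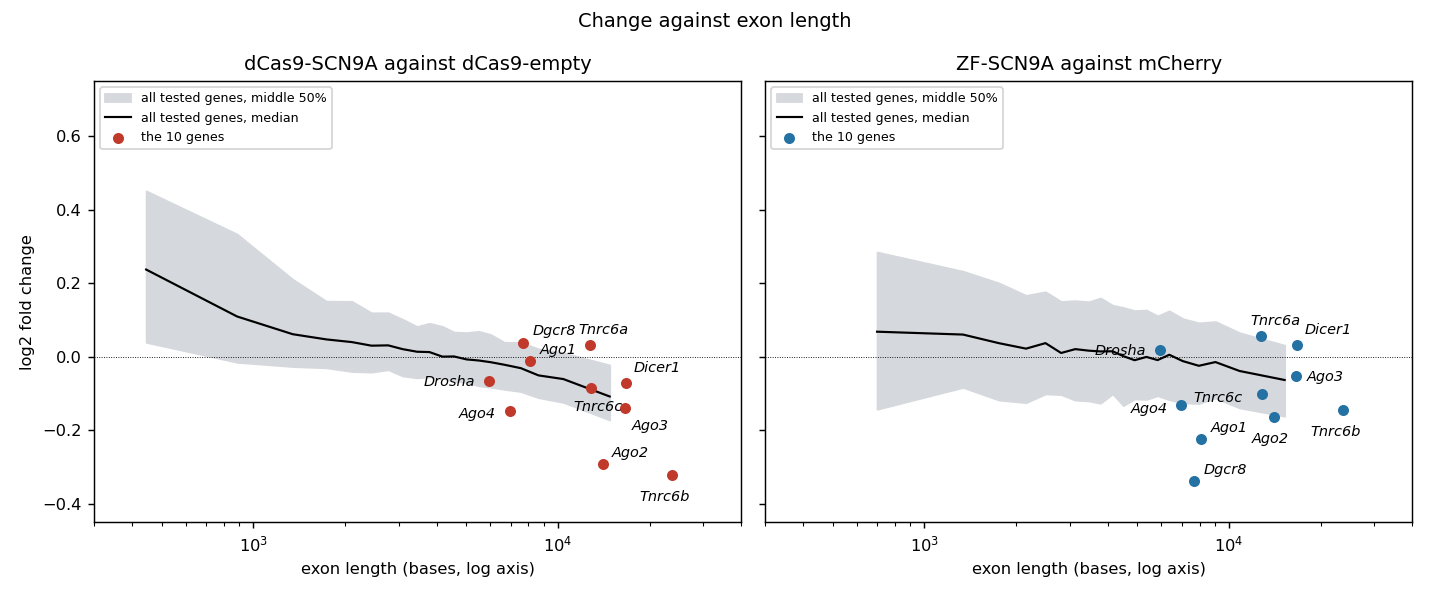
Log2 fold change (vertical axis) against exon length in bases (horizontal axis, log scale) for dCas9-SCN9A against dCas9-empty (left) and ZF-SCN9A against mCherry (right). The black line is the median of all tested genes in 20 groups of about equal size by length. The grey band is their middle 50%, and points are the 10 genes. The line ends at the median length of the longest group, so Tnrc6b, Ago3 and Dicer1 lie beyond its end. Of the other genes Ago2 lies furthest below the line on the left, and Dgcr8 and Ago1 on the right. Tnrc6b is the lowest point on the left.

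The make-up of each family was compared as the share of each paralog in the family's counts per exon length, which does not depend on library size. Ago2 made up 69.5% ± 1.26 of the Argonautes in dCas9-SCN9A and 73.1% ± 1.77 in dCas9-empty (SD, n = 3 each), and its ranges of 68.7% to 70.9% and 71.2% to 74.8% did not overlap. It made up 70.9% and 71.1% in ZF-SCN9A, within the 69.7% to 71.5% of mCherry. Tnrc6b made up 13.2% ± 0.509 of the Tnrc6 family in dCas9-SCN9A and 16.0% ± 0.879 in dCas9-empty, and 15.6% and 15.7% in ZF-SCN9A against 16.7% and 17.4% in mCherry. Neither pair of ranges overlapped. Tnrc6a had the largest share in all 10 libraries, and its ranges did not overlap either: 55.0% to 57.5% in dCas9-SCN9A and 51.3% to 54.9% in dCas9-empty, and 55.9% to 56.9% in ZF-SCN9A and 53.3% to 53.6% in mCherry. Shares within a family sum to a fixed total, so a lower share of 1 gene raises those of the others. How often shares lie apart in other families was not examined. With the zinc finger, CPM lay wholly lower for 22.3% of all genes tested. The shares were not corrected for the trend with exon length, and Tnrc6b has 23677 exon bases, against 12706 for Tnrc6a and 12843 for Tnrc6c.

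**Figure D4:**
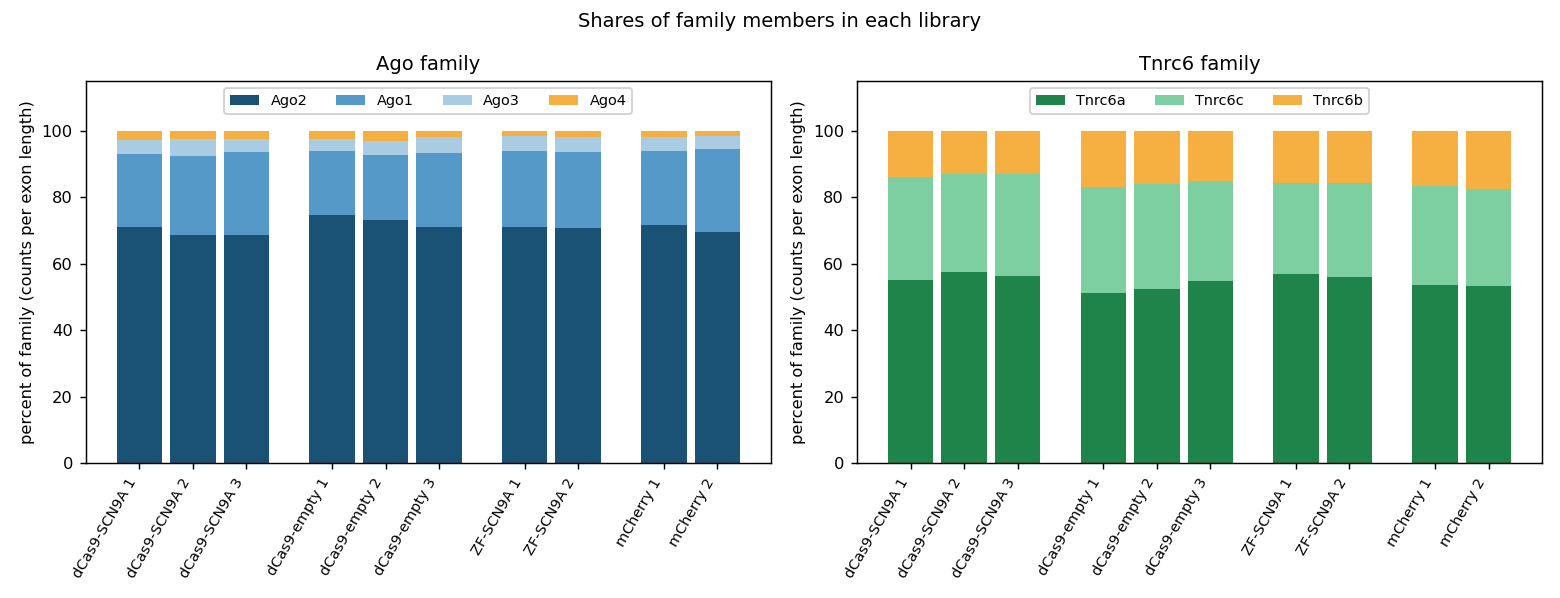
Percent of the family's counts per exon length (vertical axis) held by each Argonaute (left) and each Tnrc6 gene (right) in each library. Ago2 holds 68.7% to 74.8% of the Argonautes and Tnrc6b 12.8% to 17.4% of the Tnrc6 family over the 10 libraries, with Tnrc6b lowest in the dCas9-SCN9A libraries.

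The other genes of the pathway were read from lists of processing partners (19 genes), Argonaute loading and turnover (10), deadenylation (15), decapping and translation block (18) and microRNA host transcripts (14, of which 13 matched the annotation). With dCas9 none of the 69 tested genes passed edgeR's test, 9 had an unadjusted p under 0.05 (4 higher, 5 lower, where 4.17% and 5.92% of all genes tested did) and DESeq2 and limma-voom called 0. Medians were -0.0052 for processing partners, -0.033 for Argonaute loading and turnover, -0.021 for deadenylation and -0.036 for decapping and translation block, beside 0.0054 over all genes tested. The extremes were Tut4 (-0.18), which adds uridines to let-7 precursors, and Srrt (0.19), which ties the cap-binding complex to microRNA processing, among the processing partners. They were Ipo8 (-0.12), an import receptor that binds Argonaute, and Zswim8 (0.02), a ubiquitin ligase adaptor of microRNA decay, in the loading list. In the deadenylation list they were Cnot1 (-0.16), the scaffold of the CCR4-NOT deadenylase, and Pan2 (0.13), a deadenylase. In the decapping list they were Ddx6 (-0.20), a helicase of translational repression, and Gigyf1 (0.19), a partner of a translation-blocking cap-binding protein. None of these 8 passed, with adjusted p from 0.229 to 0.959.

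For the zinc finger 2 of 67 tested genes passed, both lower and both in the decapping and translation block list, where 4.72% of all genes tested passed, 2.78% lower. At an unadjusted p under 0.05 there were 10 (1 higher, 9 lower), where 7.78% of all genes tested were higher and 8.4% lower. Limd1, a LIM-domain protein that binds Argonaute and Tnrc6 proteins in human cells, fell to 11.1 and 15.0 CPM in ZF-SCN9A, against 43.9 and 48.9 CPM in mCherry. Its level was 27.5% of control (95% interval 22.3% to 33.9%; log2 scale -1.86 ± 0.15, SE; adjusted p = 1.95e-30), and it passed in 12 of 12 alternative settings. In the zinc-finger fit the variance of Limd1, like that of the 10 genes, came wholly from the trend over all genes. That p-value therefore does not rest on its own replicates. With dCas9 Limd1 was at 31.2, 36.1 and 28.7 CPM in dCas9-SCN9A, against 32.9, 31.9 and 29.7 CPM in dCas9-empty (0.02, -0.16 to 0.21), with overlapping groups. The difference between the changes was 1.89 ± 0.18 (adjusted p = 2.21e-08).

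Ddx6, the helicase named above, was the other gene to pass, with its variance also taken wholly from the trend over all genes. It fell to 149 and 137 CPM in ZF-SCN9A, against 194 and 165 CPM in mCherry (-0.32 ± 0.08, SE, adjusted p = 0.00148), but the call ended with DESeq2 (-0.32, adjusted p = 0.185), without ZF-SCN9A replicate 2 (-0.26, adjusted p = 0.205) and without mCherry replicate 1 (-0.20, adjusted p = 0.291). With dCas9 it was at 128, 116 and 127 CPM in dCas9-SCN9A, against 143, 141 and 141 CPM in dCas9-empty. The log2 fold change was -0.20 ± 0.05 (SE, adjusted p = 0.229). The groups of Ddx6 lay apart in both comparisons, as for 9.14% of tested genes with dCas9 and 22.3% with the zinc finger in the lower direction. The difference between its changes was 0.13 (-0.07 to 0.33), so a difference between the repressors was not shown for Ddx6.

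The remaining extremes with the zinc finger did not pass. They were Trim71 (-0.19), a ubiquitin ligase under let-7 control, and Ncbp2 (0.23), a cap-binding subunit, among the processing partners (median -0.0094), and Ankrd52 (-0.19), a regulatory subunit of the phosphatase that acts on Ago2, and Fkbp4 (0.11), an Hsp90 cochaperone, in the loading list (median -0.054). In the deadenylation list (median -0.055) they were Cnot4 (-0.17), a ubiquitin ligase of the CCR4-NOT complex, and Pan2 (0.16), and in the decapping list (median -0.046) the highest was Dcp1b (0.24), a decapping activator. Their adjusted p ran from 0.103 to 0.539.

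**Figure D5:**
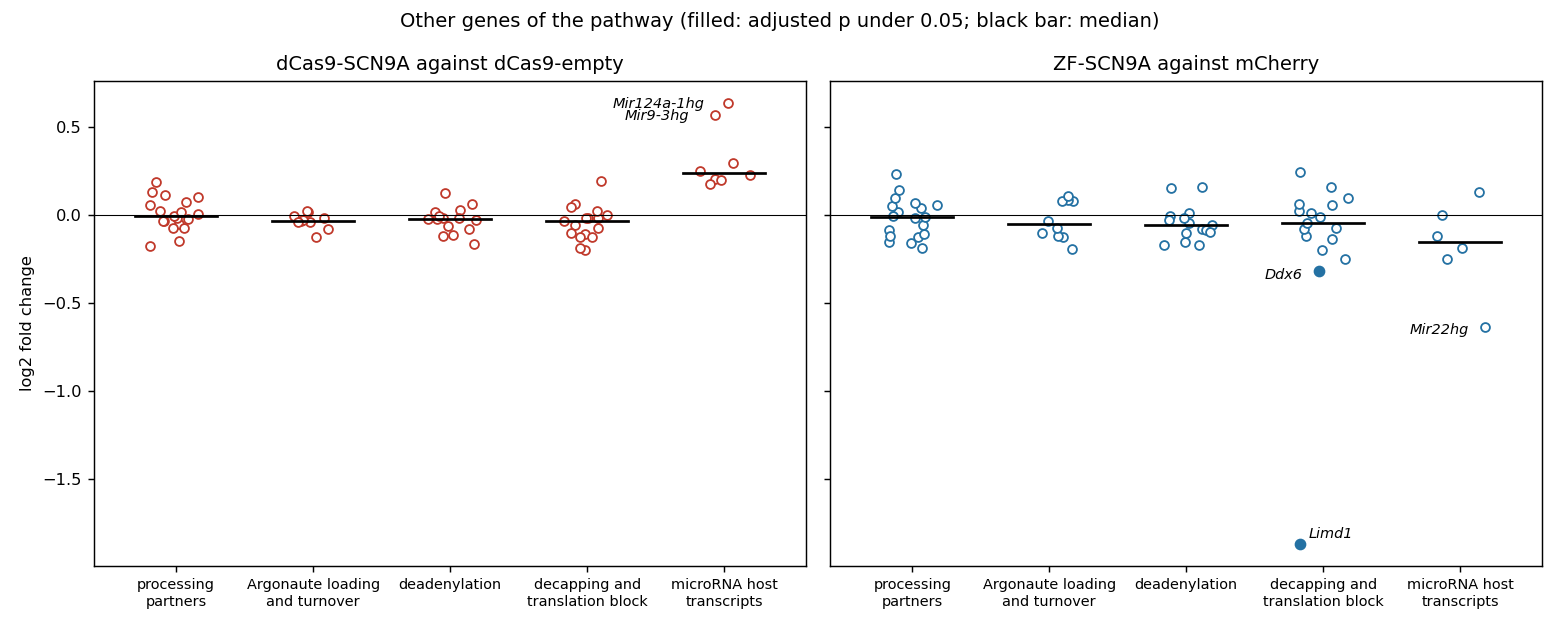
Log2 fold change (vertical axis) of each tested gene of the 5 pathway lists (horizontal axis) with dCas9-SCN9A against dCas9-empty (left) and ZF-SCN9A against mCherry (right). Filled points passed at an adjusted p under 0.05, black bars are list medians; Limd1 (-1.86) and Ddx6 (-0.32) passed with the zinc finger and no gene passed with dCas9.

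Host transcripts, from which Drosha and Dgcr8 release hairpins, were the list furthest from 0. With dCas9 all 8 tested had positive values (median 0.24, from Rian at 0.18 to Mir124a-1hg at 0.63), where 48.3% of all genes tested were below 0. Of these hosts 3 (Mir124a-1hg, Meg3 and Rian) had an unadjusted p under 0.05, where 4.17% of all genes did in this direction, and none passed the adjusted test. The microRNAs of Meg3, Rian and Mirg, all among the 8, lie between chr12:109544588 and chr12:109747949, so these hosts may not count as separate. The shares over all genes were not matched for exon length or level. For the zinc finger 5 of 6 tested were negative, where 49.6% of all genes tested were, and Rian, at -0.0020, was among the 5. The median of the 6 was -0.15, from Mir22hg at -0.63 to Meg3 at 0.13. Of the 6, 1 had an unadjusted p under 0.05, where 8.4% of all genes did in this direction. Mir124a-1hg is named as the host of a neuronal microRNA, though no mature RefSeq microRNA was found within its annotated span. It was at 2.52, 2.79 and 2.85 CPM in dCas9-SCN9A, against 1.01, 1.65 and 2.59 CPM in dCas9-empty, so the groups overlapped (adjusted p = 0.478 by edgeR). Mir22hg, host of miR-22, was at 5.38 and 7.49 CPM in ZF-SCN9A, against 11.3 and 8.36 CPM in mCherry (-0.63 ± 0.26, adjusted p = 0.15). Mature microRNAs are not among the counted features.

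The sequences below are those of the microRNAs of 3 measured hosts, Mir17hg, Dleu2 and Mir22hg, in RefSeq (GRCm38.p6), shown with the seed in capitals because 1 host transcript can carry several microRNAs with the same seed. Mir17hg stood at 10.9, 11.96 and 12.9 CPM in dCas9-SCN9A, against 7.59, 9.66 and 11.8 CPM in dCas9-empty, and at 8.55 and 5.45 CPM in ZF-SCN9A, against 8.26 and 7.41 CPM in mCherry. The groups overlapped in both. Dleu2 stood at 7.05, 8.73 and 7.86 CPM in dCas9-SCN9A, against 6.75, 6.51 and 6.99 CPM in dCas9-empty, and at 10.8 and 7.72 CPM in ZF-SCN9A, against 10.9 and 11.6 CPM in mCherry. Its groups did not overlap in either comparison, higher with dCas9 (as for 6.5% of genes) and lower with the zinc finger (as for 22.3%). Neither difference passed edgeR's test (adjusted p = 0.605 with dCas9 and 0.661 with the zinc finger).
mmu-miR-17-5p (Mir17hg): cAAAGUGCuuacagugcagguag
mmu-miR-20a-5p (Mir17hg): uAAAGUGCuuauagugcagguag
mmu-miR-19a-3p (Mir17hg): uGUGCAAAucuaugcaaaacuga
mmu-miR-19b-3p (Mir17hg): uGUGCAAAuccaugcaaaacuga
mmu-miR-15a-5p (Dleu2): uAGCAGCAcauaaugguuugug
mmu-miR-16-5p (Dleu2): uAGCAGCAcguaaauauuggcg
mmu-miR-22-3p (Mir22hg): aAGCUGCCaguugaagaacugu
miR-17 and miR-20a share the seed AAAGUGC, miR-19a and miR-19b share GUGCAAA, and miR-15a and miR-16 share AGCAGCA.

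Genes with the most similar pattern over the 10 libraries were sought among 12823 genes tested in both comparisons, by the root mean square difference in log2 CPM after centring each arm. Nearest to Tnrc6b (own root mean square 0.144) were Macf1, a cytoskeletal linker, Faxc, and Mga, a Max-binding transcription factor, at 0.046 to 0.050. Their log2 fold changes were -0.28, -0.30 and -0.25 with dCas9 and -0.20, -0.11 and -0.06 with the zinc finger. Nearest to Ago2 (0.145) were Birc6, a giant ubiquitin ligase, the DNA methyltransferase Dnmt3a and Smg1, a kinase of nonsense-mediated decay, at 0.036 to 0.037, with -0.26, -0.24 and -0.27 with dCas9 and -0.19, -0.18 and -0.21 with the zinc finger. These 6 genes have 8362 to 31402 exon bases, and none was called in either comparison. They were picked for likeness in the same libraries, so changes like those of Tnrc6b and Ago2 follow from the choice. Nearest to Dicer1 (0.084) were the mismatch repair gene Pms2, the kinase Cdc42bpb, and Gcn1l1, which acts at stalled ribosomes, at 0.029 to 0.037.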

How the data were processed

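RNA was sequenced in 10 libraries, grouped by their titles. The authors deposited raw counts of reads per gene, not normalised, as STAR writes them: an unstranded column, used here, and 2 stranded columns. The submitters' processing notes name STAR 2.7.3a, bcl2fastq 2.20, DESeq2 and the build GRCm38. No source used here gives the annotation release or the settings for counting. Symbols, coordinates and exon lengths are from GENCODE M21, in which 55141 of 55401 identifiers were found. Entries naming no gene (25.0% to 28.2% of listed reads) and 4 plasmid entries were left out. Multimapping reads (6.62% to 8.98%) are listed apart from the genes, so paralogs may lose reads.

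Each repressor was tested against its own control with edgeR 4.0.16 (quasi-likelihood test, TMM scaling, filter on low counts by group, robust, two-sided, Benjamini-Hochberg adjustment over all genes, R 4.3.3). Called means an adjusted p under 0.05. The biological coefficient of variation was 6.07% with dCas9 and 5.12% with the zinc finger, where prior degrees of freedom were infinite for 88.0% of genes. Tested on simulated data, 98% of changes of 0.5 on the log2 scale were recovered with 14489 genes in the dCas9 design and 67% with 12717 genes in the zinc-finger design. CPM uses TMM-adjusted totals. DESeq2 1.42.0 and limma-voom (limma 3.58.1), other scalings, no filter, a replicate block, all libraries in 1 fit, a lowess offset over exon length (span 0.3) and leaving out each library were alternatives.

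Replicates differed by more than sampling noise (chi-square over genes 1.98 to 8.31 per degree of freedom), and none was counted as a copy. The labels do not say that they came from separate cultures, so p-values cover the spread among these samples alone, possibly a technical one. The genes and lists were chosen with earlier results of these data known. Named are the 10 genes, list genes that passed, each list's lowest and highest gene, the 3 genes nearest in pattern to Tnrc6b, Ago2 and Dicer1, and Scn9a; Mir17hg and Dleu2 were named after their values were seen, for their microRNAs.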

Additional observations from a re-analysis of the deposited data

Results flagged for a closer look

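Limd1 was the 1 named gene whose change differed between the repressors by the test of the difference itself: the change with dCas9-SCN9A (0.02) minus that with ZF-SCN9A (-1.86) was 1.89 ± 0.18 on the log2 scale (1.53 to 2.26, adjusted p = 2.21e-08 by edgeR over all 10 libraries). It passed in 17 of 17 alternative settings, with values from 1.67 to 2.09. No group has the 4 libraries needed to look for a library far from the others.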

How the results depend on the processing

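The number of the 10 genes called with dCas9 was 0 in the fit reported and 2, Tnrc6b and Ago2, both lower, with no filter, with DESeq2, with the replicate block and with all 10 libraries in 1 fit, and 0 to 2 without each library in turn. Over all genes the count with dCas9 was 172 with no filter, 28 with DESeq2, 262 with the replicate block, 29 with all 10 libraries, 2 with the exon length correction and 1 to 34 without each library. With the zinc finger it was 128 with DESeq2, 348 with all 10 libraries and 201 to 787 without each library, and of the pathway genes 1 was called with DESeq2 and 1 to 3 without each library. The cause of these moves was not tested, save that leaving out a library leaves fewer samples, 1 in its group in the zinc-finger arm, where the lone sample is assumed to vary like the other group.

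The replicate number correlated with shared deviations at 0.232, 0.153 and 0.041 for the 3 dCas9 numbers and at 0.064 with the zinc finger. The labels do not say what it marks, so it was not taken as a pairing, although each dCas9-SCN9A sample correlated best with its own number. As a block it gave Tnrc6b an adjusted p = 0.00107 and Ago2 an adjusted p = 5.71e-04, and 2 pathway genes called with dCas9, Srrt higher and Ddx6 lower.

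The values whose sign turned were all uncalled, and of the sizes reported the largest were those of Ago4 (-0.15 with dCas9, -0.13 with the zinc finger) and Meg3 (0.13 with the zinc finger). Ago1 with dCas9 was 0.0072 with plain library size and 0.031 with the exon length correction, which also gave 0.035 for Dicer1 with dCas9, 0.019 for Ago3 with the zinc finger and 9.26e-04 for the difference of Tnrc6a. Drosha with the zinc finger was -0.0015 with no filter, and the difference of Ago4 was 0.010 with the replicate block. Without each library, ranges with dCas9 were -0.0065 to 0.13 for Tnrc6a, -0.056 to 0.059 for Ago1, -0.29 to 0.0055 for Ago4, -0.14 to 0.0075 for Dicer1, -0.029 to 0.17 for Dgcr8, -0.069 to 0.10 for Limd1 and -0.036 to 0.15 for Zswim8. With the zinc finger they were -0.34 to 0.090 for Ago4, -0.040 to 0.11 for Dicer1, -0.045 to 0.088 for Drosha and -0.20 to 0.34 for Meg3, and for the differences -0.061 to 0.067 for Tnrc6a, -0.036 to 0.076 for Tnrc6c and -0.23 to 0.20 for Ago4. Tnrc6b and Ago2 stayed negative in every alternative run, from -0.37 to -0.18 and -0.36 to -0.20 with dCas9. Ago4, at 22 to 38 counts in the zinc-finger arm, is the one of the 10 most limited by depth.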
